A study of Mus musculus with 6 samples.

Results

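The genes described here encode 3 families of enzymes that modify steroids, bile acids, lipids and foreign compounds: UDP-glycosyltransferases (Ugt), cytosolic sulfotransferases (Sult) and aldo-keto reductases (Akr). They were chosen by name alone, as protein-coding genes with a mouse symbol of Ugt, Sult or Akr followed by a digit, leaving out the aldose reductase gene Akr1b3. This gave 59 members of 57180 listed genes, with 22 in Ugt, 21 in Sult and 16 in Akr. The study gave cationic polystyrene nanoparticles, plastic particles that carry positive charge, to wild-type male C57BL/6J mice and profiled kidney RNA. Mice were 7 weeks old when bought. The 3 nanoplastic mice were dosed orally at 200 mg/kg every day over 6 weeks. The 3 vehicle mice are labelled with deionized water and a dose of 0 mg/kg. Each library came from total RNA of the kidney of a separate mouse, and the errors given are therefore between mice.

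Aldo-keto reductases use NADPH to turn aldehydes and ketones into alcohols, and several members of the Akr1c branch act on steroid hormones. UDP-glycosyltransferases of the endoplasmic reticulum then attach a sugar, mostly glucuronic acid from UDP-glucuronic acid, and sulfotransferases of the cytosol attach sulfate from the donor PAPS. Both conjugations make a compound more soluble and ready for export, and in the kidney proximal tubule cells carry out much of this work. In bulk tissue, fewer cells of a type and less RNA per cell cannot be told apart.

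Libraries held 19408534 to 26292760 expected counts, of which the members took 0.804% to 0.869%. The tissue label was checked against proximal tubule markers (Lrp2, Slc34a1, Slc5a2, Slc5a12, Slc22a6, Slc22a8 and Cubn), which summed to 302582 to 392266 counts per library. Of these 7 markers, 0 passed the adjusted threshold and 1 had an unadjusted p under 0.05. Libraries stood apart in fat markers: Adipoq, Plin1, Cfd, Fabp4 and Lep summed to 4679 counts in nanoplastic replicate 1 and 1568 in vehicle replicate 3, against 591 to 889 in the other 4. Nanoplastic replicate 1 also held the most urothelial marker counts, 429 against 40 to 140 in the others. Its principal cell markers (Aqp2, Aqp3, Scnn1g and Fxyd4) summed to 264 CPM, against 138 to 164 in the others. It was lowest in proximal tubule CPM, and in the summed CPM of the tested members, 7698 against 8231 to 8944. The part of these differences in the results below was not tested. Values without both libraries that carry fat markers are given for some members below.

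None of the 37 members that passed the filter on low counts (16 Ugt, 7 Sult, 14 Akr) passed the test of nanoplastic against vehicle, with 0 of 37 under an adjusted p of 0.05 by edgeR's quasi-likelihood test with Benjamini-Hochberg adjustment over 18092 genes. Across all genes tested the same rule called 0 (0%). At an unadjusted p under 0.05 there were 5 members of 37, or 13.5%, against 7.42% of all genes. Of these, Akr1c14, Akr1c18, Ugt2b38 and Ugt3a1 were lower in the nanoplastic kidneys (the share of all genes lower at this level was 3.61%), and Akr1c6 was higher (3.80% of all genes). The limma-voom fit called 0 members after adjustment (0% of all genes) and 5 before it (7.19%). DESeq2 was run without the filter on low counts. It placed 5 of the 37 members under an unadjusted p of 0.05, and 2.92% of the 31316 genes it tested. Those genes include many below the filter, so the 2 shares do not have the same base. After adjustment DESeq2 called 1, Akr1c18, where it called 0.440% of the genes to which it gave an adjusted p. Without vehicle replicate 2 the members under an unadjusted p of 0.05 were 2 (Akr1c18 and Ugt1a10), against 4.10% of all genes, and without both libraries that carry fat markers they were 8, against 10.0% of all genes, with 0 members called although that fit called 0.166% of all genes. With library size alone as the scale they were 4 (7.84% of all genes), of which 2 were lower (2.11% of all genes), and the median of all genes was then 0.05. Of the 6 fits that leave out 1 library, Akr1c18 stayed under an unadjusted p of 0.05 in 6, Ugt2b38 in 5, Akr1c6 in 2, and Akr1c14 and Ugt3a1 in 1 each. The lowest edgeR adjusted p among members was 0.293, for Akr1c18.

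**Figure D1:**
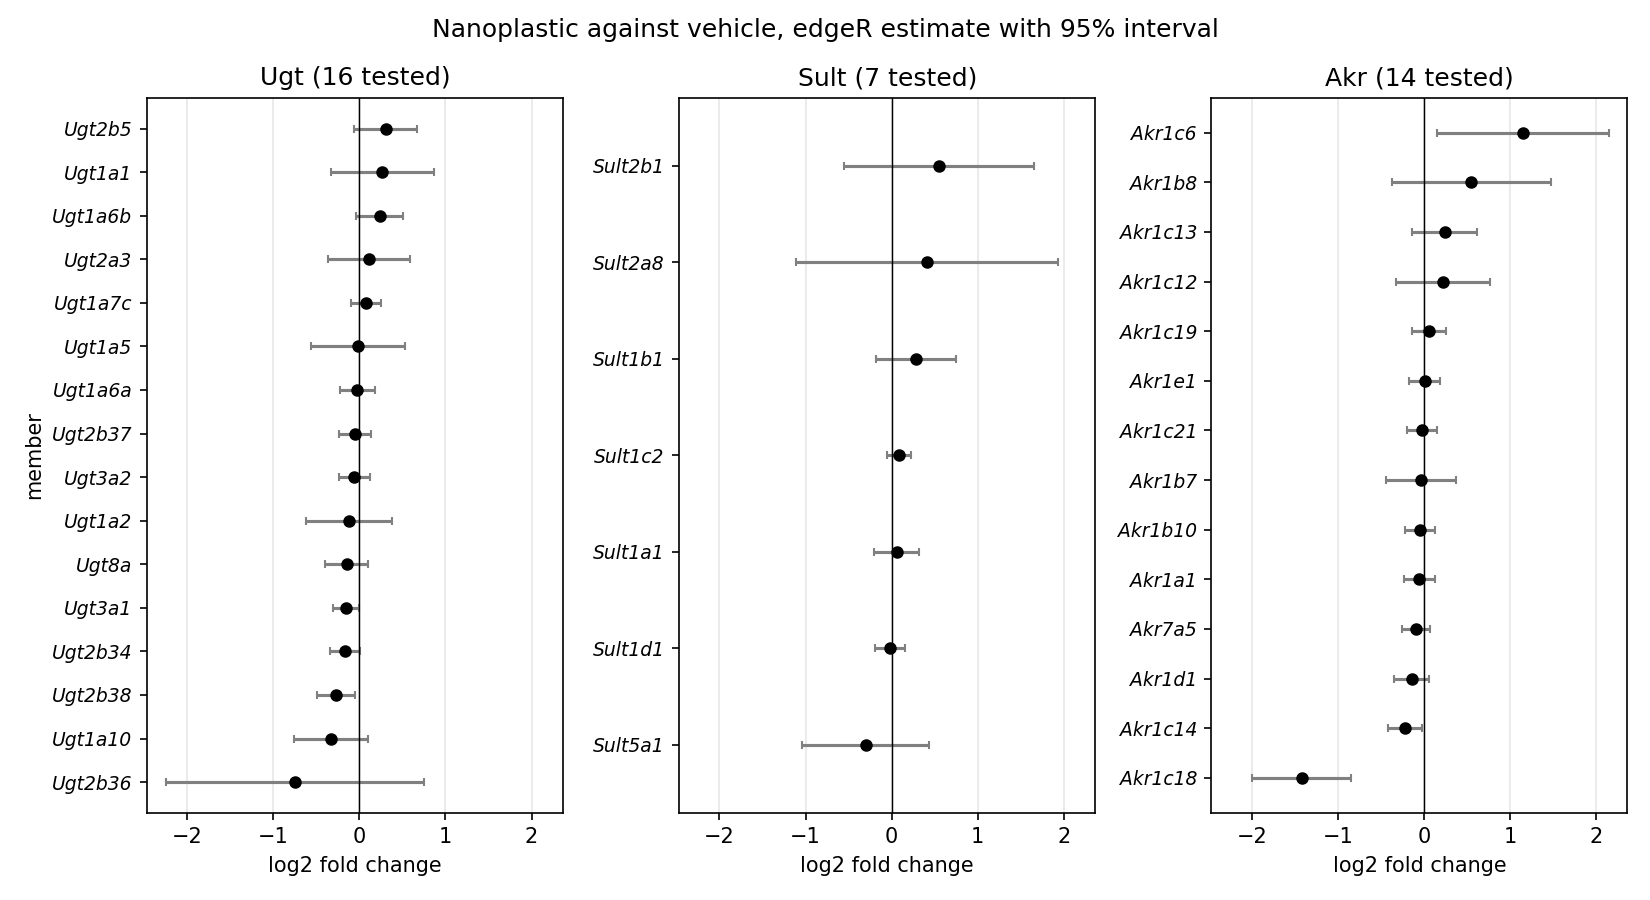
Log2 fold change of nanoplastic against vehicle for each tested member (x axis), with the edgeR estimate as a point and its 95% interval as a bar, in 1 panel per family. Akr1c18 lies farthest below 0 at -1.42 and Akr1c6 farthest above it at 1.15, and most other points lie close to the line at 0.

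The 6 library values of a gene, scaled for library size as CPM, did not overlap between the groups for 5 members of 37, or 13.5%, against 12.9% of all genes. Those lower in all 3 nanoplastic libraries were Akr1c18, Ugt2b34, Ugt2b38 and Ugt3a1 (6.32% of all genes went this way), and Ugt2b5 was higher in all 3 (6.54%). Log2 fold changes were below 0 for 21 members and above 0 for 16, so 56.8% were below 0, against 48.0% of all genes. The median was -0.02 over the tested members and 0.01 over all genes. For 30 of the 37 the 95% interval left out a 2-fold change in either direction. The other 7 were Akr1c18 and the rare Akr1b8, Akr1c6, Sult2a8, Sult2b1, Sult5a1 and Ugt2b36.

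Levels per transcript length differed far more between members than between groups. On the TPM scale, which the authors' RSEM runs corrected for transcript length and library size, Akr1c21 stood at the top with a mean of 709.8 over the 6 libraries, followed by Akr1a1 at 603. Their 6 values did not overlap. Ugt3a2 at 405 TPM and Ugt2b38 at 376 TPM came next and overlapped each other. Sult1d1 at 168 TPM stood alone below them. A group of 4 whose neighbours overlapped followed, made of Ugt1a7c (109), Akr7a5 (108), Ugt3a1 (97.2) and Akr1c14 (83.2). Ugt2b37, Sult1c2, Ugt8a, Akr1e1 and Akr1d1 spanned 36.7 to 19.8 TPM, and all other members had means of 11.1 TPM or less. Each family was carried by few genes: Ugt3a2 and Ugt2b38 took 39.7% and 29.4% of Ugt counts, Sult1d1 took 85.0% of Sult counts, and Akr1a1 and Akr1c21 took 39.4% and 38.4% of Akr counts.

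**Figure D2:**
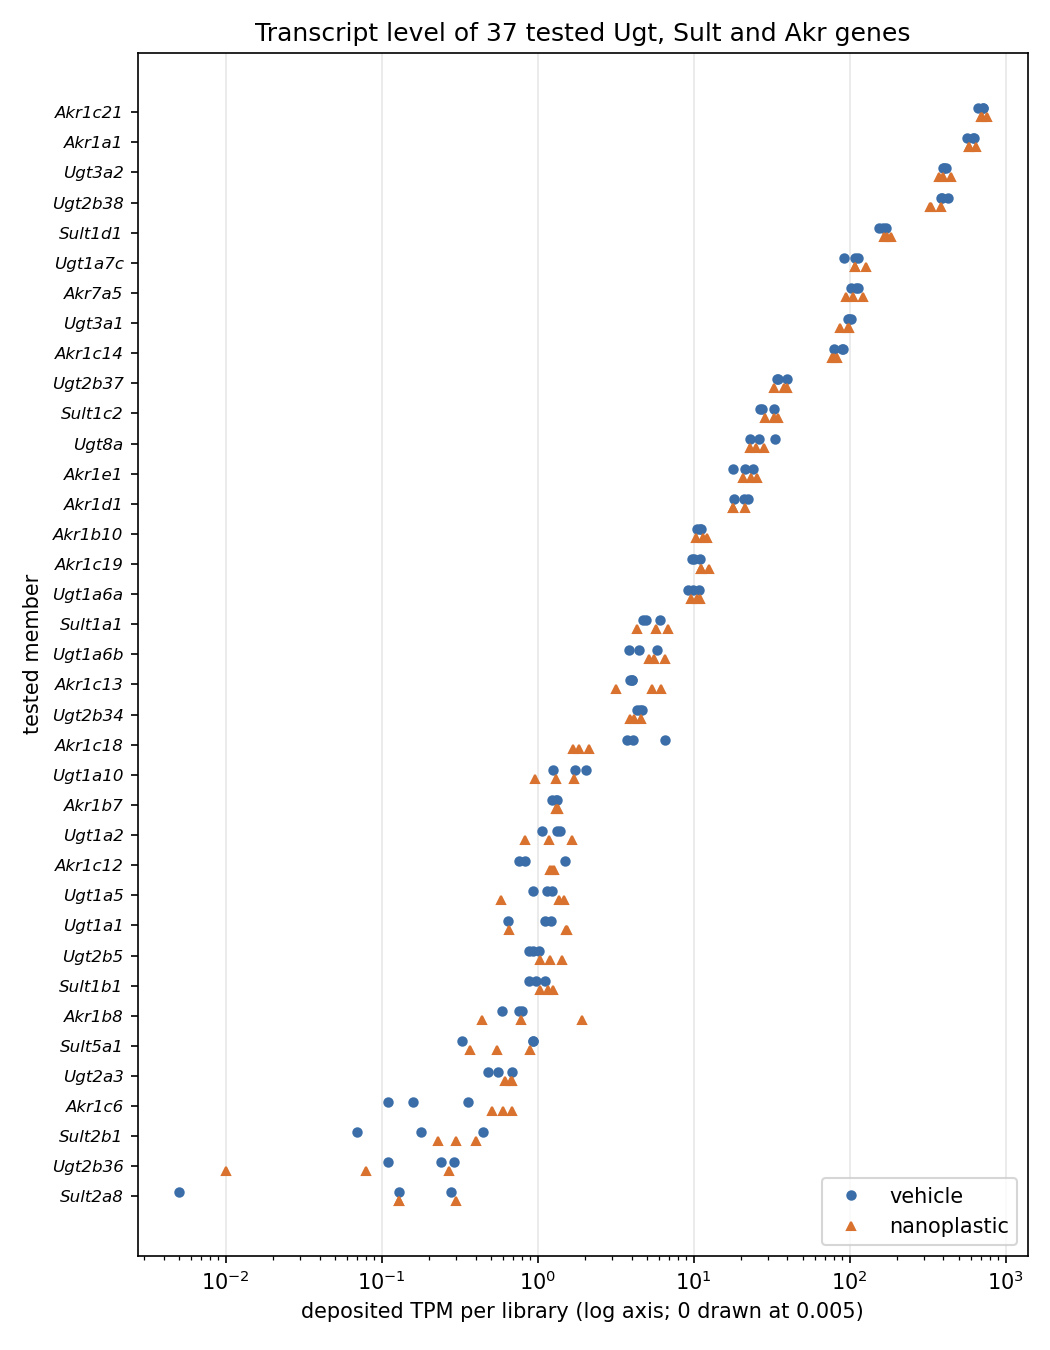
Deposited TPM of the 37 tested members in each library (log axis), ordered by mean, with circles for vehicle and triangles for nanoplastic. Akr1c21 and Akr1a1 lead, and the symbols of both groups lie on top of each other for most members, with Akr1c18 among the exceptions.

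Among the aldo-keto reductases, the Akr1c genes of chromosome 13 include the steroid dehydrogenases. Akr1c18, which inactivates progesterone as 20-alpha-hydroxysteroid dehydrogenase, Akr1c14, a 3-alpha-hydroxysteroid dehydrogenase, and Akr1c21, a 3(17)-alpha-hydroxysteroid dehydrogenase, are close relatives in sequence. They are shown, from GENCODE vM21 transcripts (GRCm38), because these genes gave different values in the same kidneys. Bases 599 to 688 of the 972 coding bases were chosen as the 90 with the most differing positions. Capitals mark the 48 of 90 positions at which the 3 are not all alike.
Akr1c18: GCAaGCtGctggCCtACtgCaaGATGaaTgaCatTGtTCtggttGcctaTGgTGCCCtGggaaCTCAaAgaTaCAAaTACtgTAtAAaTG
Akr1c14: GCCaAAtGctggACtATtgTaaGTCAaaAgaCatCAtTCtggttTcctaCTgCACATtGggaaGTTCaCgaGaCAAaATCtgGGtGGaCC
Akr1c21: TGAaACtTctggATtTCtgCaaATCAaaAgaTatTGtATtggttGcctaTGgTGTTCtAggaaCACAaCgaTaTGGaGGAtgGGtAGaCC
Over all coding bases 334 positions differ between them, and no 100-base stretch of the Akr1c18 or Akr1c21 transcripts occurred in another gene of that release.

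Akr1c18 was the member with the largest difference between the groups. It had 190, 310 and 175 counts in vehicle replicates 1, 2 and 3 and 74, 79 and 84 counts in nanoplastic replicates 1, 2 and 3. In CPM these were 7.40, 13.4 and 7.44 in vehicle and 3.00, 3.30 and 4.37 in nanoplastic. Every nanoplastic value lay below every vehicle value, and vehicle replicate 2 stood well above the other vehicle mice. The means were 9.43 ± 3.48 CPM (SD, n = 3) against 3.56 ± 0.718 CPM (SD, n = 3). Its log2 fold change was -1.42 (SE 0.26, 95% interval -1.99 to -0.84), with an unadjusted p of 0.000227 and an edgeR adjusted p = 0.293. DESeq2 gave -1.42 with an adjusted p of 4.76e-05. Over the 19 alternative settings the adjusted p ran from 4.76e-05 to 0.807, and DESeq2 alone placed it under 0.05. Without vehicle replicate 2 the log2 fold change was -1.08, and without both libraries that carry fat markers it was -1.44. Akr1c18 is also known from the ovary and the adrenal cortex, so adrenal markers were read beside it: Cyp11b1, Cyp11b2 and Cyp21a1 were at 0 in all 6 libraries and Cyp11a1 had 1 count in all, while Star had 110 to 185 counts and Mc2r 1 to 5.

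Akr1c14 had 435, 446 and 351 CPM in the vehicle libraries and 343, 364 and 355 CPM in the nanoplastic libraries. Vehicle replicate 3 lay within the nanoplastic range, so the groups overlapped. Its log2 fold change was -0.21 (SE 0.09, edgeR adjusted p = 0.648), with an unadjusted p of 0.0360. Without both libraries that carry fat markers it was -0.29 (edgeR adjusted p = 0.145). The abundant Akr1c21 had 1425, 1359 and 1304 CPM in vehicle and 1249, 1368 and 1409 CPM in nanoplastic. These overlapped fully, and the log2 fold change of -0.02 had a 95% interval of -0.20 to 0.15. Akr1c19, another Akr1c gene, gave 26.9, 29.05 and 31.6 CPM against 27.6, 31.1 and 32.3 CPM, a log2 fold change of 0.06 (SE 0.09, edgeR adjusted p = 0.901). Over the 7 tested Akr1c genes 4 estimates were above 0 and 3 below, with a median of 0.06.

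Akr1c6, a 17-beta-hydroxysteroid dehydrogenase best known from liver, was rare. It had 22, 5 and 8 counts in vehicle and 18, 31 and 24 in nanoplastic, or 0.857, 0.217 and 0.340 CPM against 0.731, 1.29 and 1.25 CPM. Vehicle replicate 1 lay above nanoplastic replicate 1, so the groups overlapped. The log2 fold change was 1.15 (SE 0.45, edgeR adjusted p = 0.623), with an unadjusted p of 0.0282. Without vehicle replicate 1 it was 1.93, and with log2(TPM + 1) in place of counts 0.41. The unadjusted p was not under 0.05 when vehicle replicate 2 or 3 or nanoplastic replicate 2 or 3 was left out. Akr1c6 passed the filter despite the low counts of vehicle replicates 2 and 3. With a floor of 1 CPM in 3 libraries it was not tested, and DESeq2 gave it no adjusted p. Albumin (Alb), the main secreted protein of liver, had 1252, 183 and 548 counts in vehicle and 398, 861 and 879 in nanoplastic in the same order of mice. Apoa1, another liver marker, had 108, 17 and 43 against 30, 99 and 75 counts. In both groups the mouse with the fewest Akr1c6 counts was also the one with the fewest Alb and Apoa1 counts. In vehicle this did not hold for Ttr and Serpina1a, whose lowest value was in replicate 3. Ttr, a carrier of thyroid hormone, had 131, 144 and 92.3 CPM in vehicle and 45.2, 93.8 and 84.6 CPM in nanoplastic, a log2 fold change of -0.72 (SE 0.23, edgeR adjusted p = 0.541) with an unadjusted p of 0.0106, and Serpina1a, a protease inhibitor, had 0.22 (SE 0.09, edgeR adjusted p = 0.662) with an unadjusted p of 0.0399. Over the 6 liver markers 5 were tested and 4 had estimates above 0, their summed CPM were 263, 224 and 188 in vehicle and 148, 229.6 and 208 in nanoplastic, and Cyp7a1, the rate-limiting enzyme of bile acid synthesis, had 0 to 2 counts. Their part in the Akr1c6 result was not tested.

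**Figure D3:**
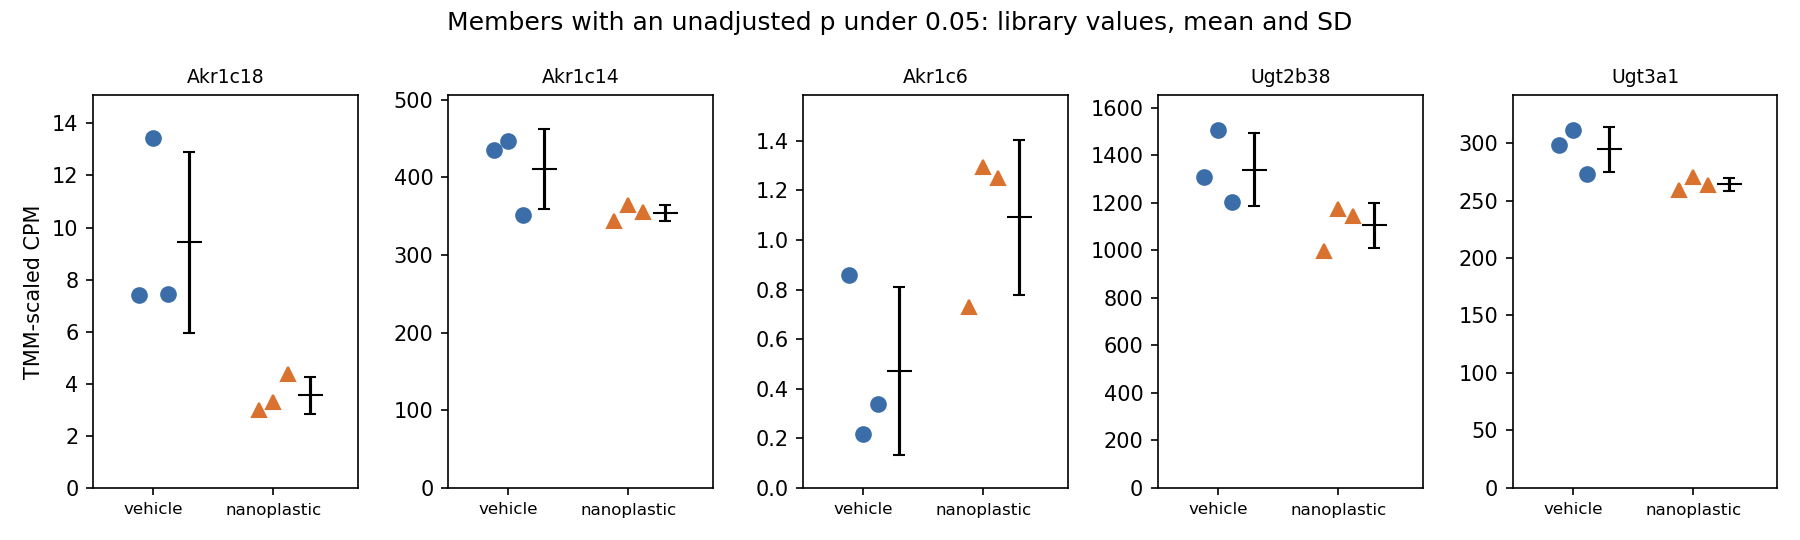
CPM of the 5 members with an unadjusted p under 0.05, per library (circles vehicle, triangles nanoplastic, left to right replicates 1 to 3), with mean and SD as bars, n = 3 per group. The groups are separate for Akr1c18, Ugt2b38 and Ugt3a1 and overlap for Akr1c14 and Akr1c6.

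Akr1c12 and Akr1c13 are near copies, with 96.2% identical coding bases. RSEM divides reads between them. They are shown over coding bases 313 to 402 of 972, chosen as the 90 bases with the most differing positions. Capitals mark the 11 differing positions of 90 in this window (37 of 972 in all).
Akr1c12: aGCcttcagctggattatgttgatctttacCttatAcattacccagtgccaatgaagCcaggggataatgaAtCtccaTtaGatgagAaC
Akr1c13: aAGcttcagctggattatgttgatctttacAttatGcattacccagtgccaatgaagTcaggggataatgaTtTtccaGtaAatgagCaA
All 12 deposited values of the pair were fractions of reads, and their sum was whole (within 0.02 of a whole number) in 6 of 6 libraries. The sum does not depend on how reads were divided, and it stood at 9.43, 9.58 and 9.77 CPM in vehicle and 12.95, 11.8 and 8.94 CPM in nanoplastic. The sum gave a log2 fold change of 0.24 (SE 0.13, edgeR adjusted p = 0.725). Nanoplastic replicate 3 was the lowest of the 6 and nanoplastic replicate 1 the highest.

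The other aldo-keto reductases handle sugars, aldehydes and lipids. Akr1a1, the aldehyde reductase that turns glucuronate into gulonate on the way to ascorbate, had 1485, 1403 and 1364 CPM in vehicle and 1255, 1406 and 1435 CPM in nanoplastic. Nanoplastic replicate 1 was the lowest and the rest overlapped, and the log2 fold change was -0.05 (SE 0.08, edgeR adjusted p = 0.895). Akr7a5, a reductase of succinic semialdehyde and other aldehydes, gave 237, 228 and 223 CPM against 203, 238 and 207 CPM, and its log2 fold change was -0.09 (SE 0.07, edgeR adjusted p = 0.808). Akr1e1, which reduces 1,5-anhydrofructose, gave 70.7, 66.03 and 61.5 against 60.02, 70.1 and 69.5 CPM, a log2 fold change of 0.01 (SE 0.08, edgeR adjusted p = 0.990). Akr1d1, the 5-beta-reductase of steroid and bile acid synthesis, had 39.1, 37.5 and 39.04 CPM in vehicle and 31.9, 40.3 and 32.7 in nanoplastic, where replicates 1 and 3 lay below all vehicle mice and replicate 2 above them. Its log2 fold change was -0.14 (SE 0.09, edgeR adjusted p = 0.756).

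The 3 Akr1b genes on chromosome 6 are relatives of aldose reductase. Akr1b10 gave 24.7, 24.4 and 22.1 CPM in vehicle and 22.2, 23.9 and 22.8 in nanoplastic, and Akr1b7 gave 2.84, 2.99 and 2.42 against 2.64, 2.55 and 2.91, with log2 fold changes of -0.05 (SE 0.08) and -0.04 (SE 0.18). Akr1b8 had 1.36, 1.82 and 1.53 CPM in vehicle and 3.98, 1.63 and 1.04 CPM in nanoplastic. The high value came from nanoplastic replicate 1 alone, the library with the most fat and urothelial marker counts, and the other nanoplastic values lay around those of vehicle. The log2 fold change of Akr1b8 was 0.55 (SE 0.42, edgeR adjusted p = 0.791), and without nanoplastic replicate 1 it was -0.20. The median over the 14 tested Akr genes was -0.03, with 8 estimates below 0. It was 0.05 when log2(TPM + 1) was fitted in place of counts, where the median of all genes was 0.04, and 0.02 with library size alone, where that of all genes was 0.05. Summed over the 14 tested Akr genes, CPM were 3602 ± 174 (SD, n = 3) in vehicle and 3453 ± 206 (SD, n = 3) in nanoplastic.

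The Ugt1a genes on chromosome 1 share their last exons: each member has its own first exon, which sets the substrate, joined to the same remainder. All 9 listed members end in an identical run of 740 coding bases, 46.0% to 46.6% of a coding sequence. The start of this run is shown for Ugt1a7c, Ugt1a6a, Ugt1a6b and Ugt1a1, from GENCODE vM21 transcripts (GRCm38). The 40 bases before the run are in lower case and its first 60 bases in capitals. The run begins shortly before the end of the own first exon.
Ugt1a7c, first transcript: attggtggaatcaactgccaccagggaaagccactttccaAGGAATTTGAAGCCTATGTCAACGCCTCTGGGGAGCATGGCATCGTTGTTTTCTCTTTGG
Ugt1a7c, second transcript: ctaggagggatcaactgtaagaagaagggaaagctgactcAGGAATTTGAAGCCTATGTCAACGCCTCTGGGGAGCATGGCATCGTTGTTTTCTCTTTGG
Ugt1a6a: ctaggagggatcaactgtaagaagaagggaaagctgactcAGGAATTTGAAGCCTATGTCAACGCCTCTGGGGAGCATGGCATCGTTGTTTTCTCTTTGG
Ugt1a6b: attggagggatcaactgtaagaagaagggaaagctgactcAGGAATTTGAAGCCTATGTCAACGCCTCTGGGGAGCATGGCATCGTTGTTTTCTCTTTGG
Ugt1a1: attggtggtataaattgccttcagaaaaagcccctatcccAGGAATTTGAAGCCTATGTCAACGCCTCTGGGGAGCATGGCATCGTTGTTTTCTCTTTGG
The second transcript filed under Ugt1a7c has the same coding sequence as Ugt1a6a, and both Ugt1a7c transcripts run 1005 bases farther at the 3′ end than the median Ugt1a transcript, where the others differ from it by at most 7. In that annotation, reads from the extension have Ugt1a7c as their only Ugt1a gene. Its deposited mean length was 3002 to 3109 bases over the libraries, against 1655 to 2379 for the other members. Which first exon the counts filed under Ugt1a7c came from is therefore not resolved here.

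As filed, Ugt1a7c held 604, 554 and 588 CPM in vehicle and 552, 659.9 and 626 CPM in nanoplastic, most of the Ugt1a signal. The log2 fold change was 0.07 (SE 0.08, edgeR adjusted p = 0.850). Ugt1a6a, which with Ugt1a6b conjugates phenols, gave 46.5, 41.3 and 39.4 against 42.7, 36.99 and 45.6 CPM (-0.02, SE 0.09). Ugt1a6b gave 18.2, 16.4 and 21.8 against 19.04, 24.2 and 23.2 CPM (0.24, SE 0.12), with overlapping groups in both cases. Ugt1a1, the bilirubin transferase, stood at 4.52, 2.73 and 4.46 against 5.64, 5.51 and 2.704 CPM, a log2 fold change of 0.27 (SE 0.27, edgeR adjusted p = 0.839). Summed over the locus, CPM were 689, 627 and 671 in vehicle and 635, 739 and 709 in nanoplastic, and the log2 fold change of the sum was 0.07 (SE 0.08, 95% interval -0.10 to 0.24, edgeR adjusted p = 0.854). This sum was whole in 1 of 6 libraries. Dnajb3, which overlaps the locus on the opposite strand, had 163 counts in all 6 libraries.

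Ugt2 transferases on chromosome 5 act mainly on steroids, bile acids and drugs. Ugt2b38, Ugt2b5 and Ugt2b37 too share reads. They are shown over coding bases 466 to 555 of 1593, chosen as the 90 bases with the most differing positions. Capitals mark the 17 of 90 positions at which the 3 are not all alike (112 of 1593 in all).
Ugt2b38: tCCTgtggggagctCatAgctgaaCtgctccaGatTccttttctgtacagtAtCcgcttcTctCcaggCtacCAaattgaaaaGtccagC
Ugt2b5: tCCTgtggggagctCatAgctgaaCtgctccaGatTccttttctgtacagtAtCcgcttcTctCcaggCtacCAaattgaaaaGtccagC
Ugt2b37: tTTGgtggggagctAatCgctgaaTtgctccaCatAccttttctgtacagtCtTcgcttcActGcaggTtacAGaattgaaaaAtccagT
Ugt2b38 and Ugt2b5 are letter for letter the same here and match at 97.0% of coding bases, and Ugt2b37 matches Ugt2b38 at 94.1%. Of the Ugt2b38 transcript, 24.2% of 100-base stretches also occur in Ugt2b5, against 1.06% in Ugt2b37.

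Ugt2b38, the most abundant Ugt2 gene, had 1306, 1505 and 1202 CPM in vehicle and 996, 1173 and 1145 CPM in nanoplastic. All 3 nanoplastic values lay below all vehicle values, by a narrow gap between nanoplastic replicate 2 and vehicle replicate 3. The means were 1338 ± 154 CPM (SD, n = 3) against 1105 ± 95.1 CPM (SD, n = 3). Its log2 fold change was -0.28 (SE 0.10, 95% interval -0.50 to -0.06), with an unadjusted p of 0.0186 and an edgeR adjusted p = 0.598. Without vehicle replicate 2, the highest of the 6, the log2 fold change was -0.18. Ugt2b5 gave 3.08, 3.03 and 3.10 CPM against 4.26, 3.59 and 3.48 CPM, higher in all nanoplastic libraries, with a log2 fold change of 0.31 (SE 0.17, edgeR adjusted p = 0.717). Ugt2b37 overlapped between groups, at 135, 121 and 106 CPM in vehicle and 121, 117 and 113 CPM in nanoplastic (-0.05, SE 0.08). With the 3 genes summed, where reads no longer need to be divided, the libraries held 1445, 1629.8 and 1312 CPM in vehicle and 1122, 1293 and 1262 in nanoplastic. The sum was whole in 6 of 6 libraries and its groups did not overlap. Its log2 fold change was -0.25 (SE 0.10, edgeR adjusted p = 0.611), with an unadjusted p of 0.0233.

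**Figure D4:**
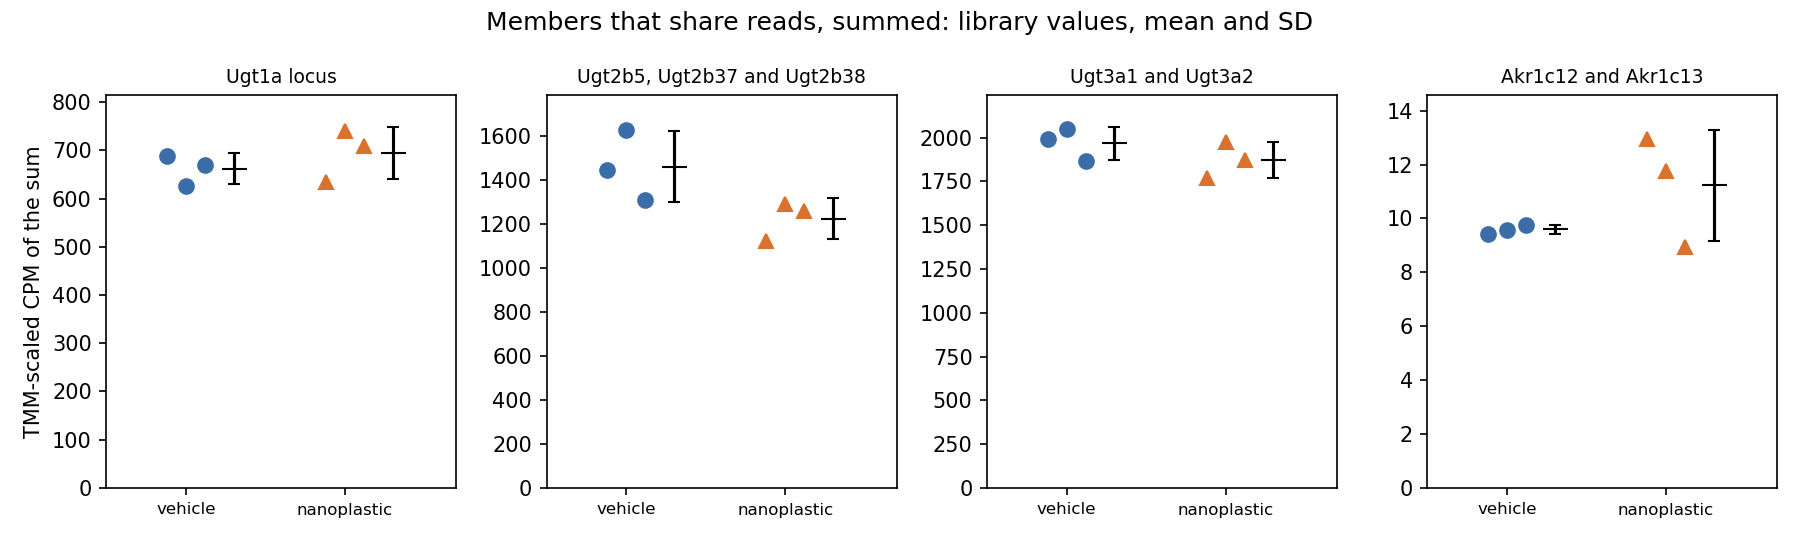
CPM of the 4 sets of members that share reads, each summed within a library (circles vehicle, triangles nanoplastic), with mean and SD, n = 3 per group. The set of Ugt2b5, Ugt2b37 and Ugt2b38 is lower in every nanoplastic library, and the other sets overlap.

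Ugt2b34 gave 24.8, 26.9 and 24.4 CPM in vehicle and 23.6, 21.5 and 22.8 CPM in nanoplastic. Its CPM were lower in all nanoplastic libraries by a small step, a log2 fold change of -0.17 (SE 0.08, edgeR adjusted p = 0.684). In deposited TPM its groups overlapped, at 4.35, 4.53 and 4.66 in vehicle and 4.59, 4.14 and 3.93 in nanoplastic. Ugt2a3 and Ugt2b36 were rare, and Ugt2b36 (16, 3 and 10 counts against 1, 6 and 9) had a log2 fold change of -0.75 (SE 0.68, edgeR adjusted p = 0.820). The median over the 6 tested Ugt2 genes was -0.11.

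Ugt3a1 and Ugt3a2 on chromosome 15 differ from other Ugt enzymes in their sugar donors: Ugt3a1 uses UDP-N-acetylglucosamine and Ugt3a2 uses UDP-glucose or UDP-xylose. The pair is shown because it is the most abundant of the family in kidney and divides reads. Bases 209 to 298 of the 1572 coding bases were chosen as the 90 with the most differing positions. Capitals mark the 20 differing positions of 90 (106 of 1572 in all).
Ugt3a2: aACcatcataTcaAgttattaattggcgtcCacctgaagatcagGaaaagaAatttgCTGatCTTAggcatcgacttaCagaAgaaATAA
Ugt3a1: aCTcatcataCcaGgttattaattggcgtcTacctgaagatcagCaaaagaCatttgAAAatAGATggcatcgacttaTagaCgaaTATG
Ugt3a1 had 298, 311 and 273 CPM in vehicle and 259, 270.3 and 264 CPM in nanoplastic. The nanoplastic CPM were tightly grouped and all lay below the lowest vehicle value. In deposited TPM the groups overlapped, at 99.7, 101.5 and 98.25 in vehicle and 99.56, 97.5 and 86.6 in nanoplastic. Akr1c18, Ugt2b38 and Ugt2b5 stayed apart in TPM. The means were 294 ± 19.3 CPM (SD, n = 3) against 264 ± 5.68 CPM (SD, n = 3), and the log2 fold change was -0.16 (SE 0.07, edgeR adjusted p = 0.663) with an unadjusted p of 0.0405. Ugt3a2 overlapped between groups, at 1694, 1737 and 1591 CPM against 1511, 1704 and 1609 CPM (-0.06, SE 0.08). All 12 deposited values of the pair were fractions of reads and their sums were whole in 6 of 6 libraries. Summed, the pair held 1993, 2048 and 1865 CPM in vehicle and 1770.4, 1974 and 1873 in nanoplastic, which overlapped, and the log2 fold change of the sum was -0.07 (SE 0.08, edgeR adjusted p = 0.856).

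Ugt8a on chromosome 3 makes galactosylceramide, the precursor of the sulfatides of myelin and kidney. It had 149.8, 178 and 197 CPM in vehicle and 169.7, 134 and 169.6 CPM in nanoplastic, with overlap and a log2 fold change of -0.15 (SE 0.11, edgeR adjusted p = 0.791). Over the 16 tested Ugt genes the median log2 fold change was -0.05, with 11 estimates below 0, against 0.01 over all genes. When log2(TPM + 1) was fitted in place of counts the Ugt median was 0.00 and that of all genes 0.04, and with library size alone as the scale they were -0.01 and 0.05, so the Ugt median minus that of all genes was -0.06, -0.04 and -0.06 in these 3 fits. Without vehicle replicate 1 the Ugt median was -0.00037, and without nanoplastic replicate 1 it was -0.10. Sums over the tested Ugt genes were 4295 ± 220 CPM (SD, n = 3) in vehicle and 3975 ± 228 CPM (SD, n = 3) in nanoplastic.

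**Figure D5:**
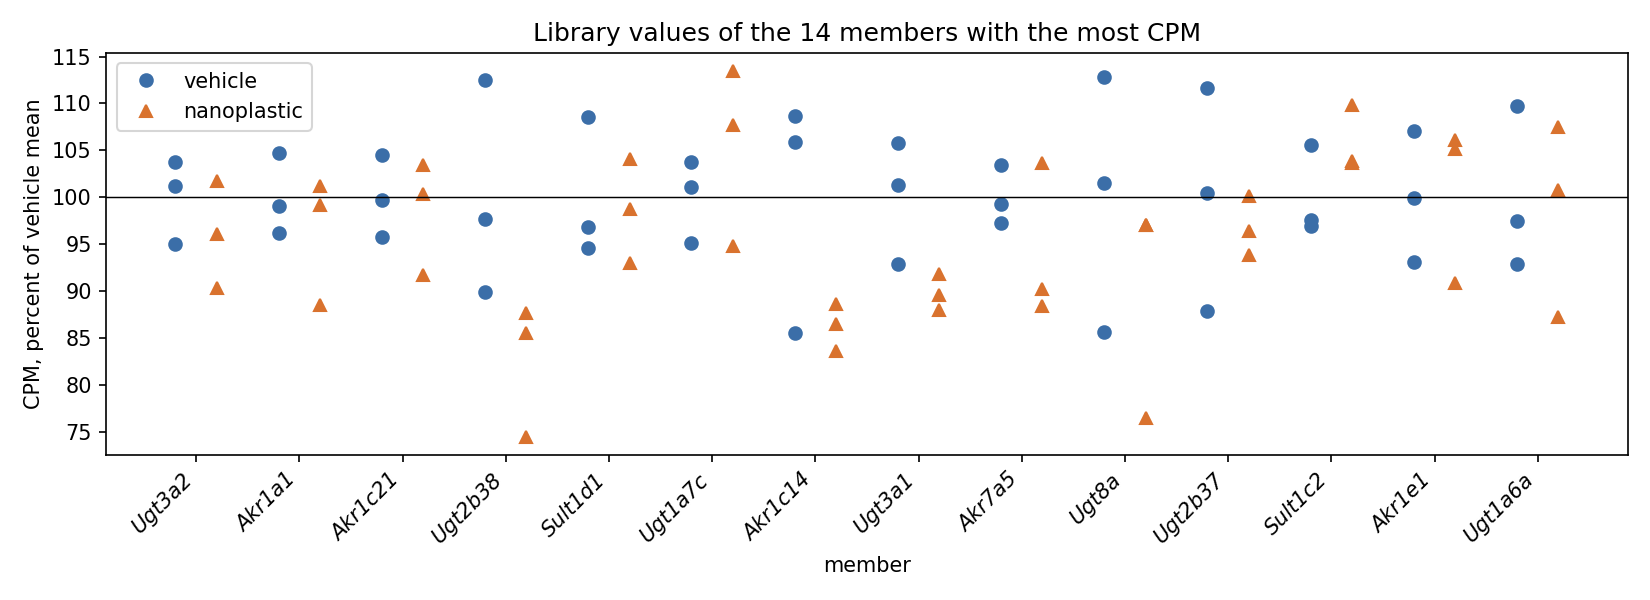
CPM of the 14 members with the highest mean CPM, each library as a percent of the vehicle mean of that gene (circles vehicle, triangles nanoplastic). Ugt2b38 and Ugt3a1 have all 3 nanoplastic values below their vehicle values, while the other 12 members overlap.

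Markers of segment 3, the last stretch of the proximal tubule, were read beside these values. All 4 (Slc7a13, Slc22a7, Slc5a1, Slc7a12) had estimates below 0, with a median of -0.12 and summed CPM of 1341, 1333 and 1322 in vehicle and 1034, 1248 and 1298 in nanoplastic. Nanoplastic replicate 1 was the lowest and nanoplastic replicate 3 lay close to vehicle. Slc22a7, an organic anion transporter, had 141, 127 and 90.96 CPM in vehicle and 65.3, 78.3 and 79.9 CPM in nanoplastic, a log2 fold change of -0.68 (SE 0.14, edgeR adjusted p = 0.311). Slc7a13, the most abundant of the 4, had a log2 fold change of -0.12 (SE 0.09, edgeR adjusted p = 0.805). Markers of other kidney cell types also fell below 0: 4 of 4 for macrophages and fibroblasts, 3 of 4 for thick ascending limb and podocytes. For the whole proximal tubule they were 5 of 7. Fewer did so for intercalated cells and endothelium (2 of 4), principal cells (1 of 4), distal convoluted tubule (1 of 3) and urothelium (0 of 3 tested). Thick ascending limb sums were 5607 CPM in vehicle and 4813 CPM in nanoplastic. The part of any of these cell types in the lower values of Akr1c18, Akr1c14, Ugt2b38 and Ugt3a1 was not tested.

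Sulfotransferase transcripts of the mouse kidney were almost all Sult1d1 and Sult1c2. Sult1d1, which sulfates catecholamines and other phenols, had 613, 703 and 627 CPM in vehicle and 639, 602 and 674 CPM in nanoplastic. The values of both groups interleaved, and the log2 fold change was -0.02 (SE 0.08, 95% interval -0.19 to 0.15, edgeR adjusted p = 0.970). Sult1c2 gave 90.3, 90.8 and 98.3 CPM against 102, 96.7 and 96.6 CPM, with a log2 fold change of 0.08 (SE 0.06, edgeR adjusted p = 0.796). Sult1a1, the phenol sulfotransferase, gave 10.6, 10.9 and 11.9 against 13.2, 11.6 and 9.88 CPM (0.06, SE 0.12). Sgf29 overlaps Sult1a1 on the opposite strand and had 594 counts in all 6 libraries. Strand is not given for these libraries, so reads of such partners cannot be told apart.

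Sult1b1, which sulfates thyroid hormones, gave 3.12, 4.68 and 3.31 CPM in vehicle and 3.65, 5.43 and 4.37 CPM in nanoplastic (0.28, SE 0.21). The remaining 3 tested sulfotransferases held few counts. Sult2a8, a bile acid sulfotransferase of mouse liver, had 16, 0 and 8 counts in vehicle and 6, 11 and 13 in nanoplastic. Its 0 fell in vehicle replicate 2, the mouse with the fewest Alb counts but the highest Ttr value. The summed liver marker CPM of that mouse, 224, lay between those of the other vehicle mice (263 and 188). The part of liver transcripts in Sult2a8 was not tested. Sult2b1, which sulfates cholesterol, had 9, 4 and 16 against 20, 14 and 6 counts. Sult5a1 had 35, 17 and 27 against 28, 16 and 16. Log2 fold changes were 0.41 (SE 0.69), 0.55 (SE 0.50) and -0.30 (SE 0.33), with edgeR adjusted p of 0.912, 0.822 and 0.852. No difference was detected at these counts with 3 mice per group. Lmtk3, on the opposite strand to Sult2b1, had 181 counts in all. Over the 7 tested Sult genes 5 estimates were above 0 and the median was 0.08, and the family sums of 757 ± 47.5 CPM and 755 ± 34.9 CPM (SD, n = 3 each) were nearly equal.

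Below the filter on low counts were 22 members: 14 Sult, 6 Ugt and 2 Akr. Of these 11 had no count in any library, namely Sult1c1, Sult2a1, Sult2a2, Sult2a4, Sult2a5, Sult2a6, Sult2a7, Sult3a1, Sult3a2, Ugt2a1 and Akr1cl. A count of 0 over all 6 libraries allows up to 3 counts, or 0.0214 CPM, for counting error only. The other 11 had at most 16 counts in a library. Ugt2b1, a liver transferase, had 16, 5 and 6 counts in vehicle and 7, 4 and 9 in nanoplastic, and Akr1c20 had 3, 8 and 10 against 7, 5 and 5. Sult1e1, the oestrogen sulfotransferase, was at 0 in 5 libraries and had 3 counts in nanoplastic replicate 2.

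Promoter sequence was read for 52 of the 59 symbols from RefSeq (GRCm38.p6), as 250 bases before to 50 after each start, with 55 entries since some genes have several. On both strands, TGACNNNGC (the core of the antioxidant response element bound by Nrf2) was in 3.64% of the member promoters and 12.4% of all 32851, and GCGTG (the core bound by the aryl hydrocarbon receptor) in 18.2% and 32.4%. Of the 37 tested members 35 have an entry. A match is a description of letters and not of binding, and members of a cluster share ancestry, so their promoters are not independent.

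Genes that supply the sugar and sulfate donors were read from lists beside the members. Of 12 genes of UDP-glucuronic acid supply and reversal, 0 passed the adjusted threshold and the median was -0.06. At an unadjusted p under 0.05, 1 was lower, or 8.33%, against 3.61% of all genes. Ugdh, which makes UDP-glucuronic acid, had 73.4, 65.6 and 74.4 CPM in vehicle and 74.1, 84.1 and 75.2 CPM in nanoplastic, a log2 fold change of 0.13 (SE 0.08, edgeR adjusted p = 0.727). Ugp2, which makes its precursor UDP-glucose, gave -0.06 (SE 0.07, edgeR adjusted p = 0.859). Gusb, the beta-glucuronidase that removes the sugar again, had 41.3, 43.9 and 32.3 CPM in vehicle and 28.6, 36.03 and 27.8 CPM in nanoplastic. The groups overlapped, and the log2 fold change was -0.34 (SE 0.13, edgeR adjusted p = 0.604).

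On the sulfate side, 15 of 17 listed genes were found and tested, and 0 passed the adjusted threshold. Slc26a2 was the 1 with an unadjusted p under 0.05, or 6.67%, against 7.42% of all genes. Slc26a2, a sulfate transporter, had 21.4, 19.99 and 22.9 CPM in vehicle and 24.8, 26.7 and 24.3 CPM in nanoplastic, higher in all 3, with a log2 fold change of 0.24 (SE 0.08, edgeR adjusted p = 0.597). The PAPS synthases Papss1 and Papss2 gave -0.15 (SE 0.07, edgeR adjusted p = 0.701) and 0.09 (SE 0.10, edgeR adjusted p = 0.859). Of 12 genes of NADPH supply, 0 had an unadjusted p under 0.05 (7.42% of all genes) and the median was 0.01. Me1 and Nadk, those with the lowest p, gave -0.16 (SE 0.09) and -0.14 (SE 0.06).

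Other carbonyl and aldehyde enzymes numbered 19, of which 0 passed after adjustment, with 10 estimates below 0. At an unadjusted p under 0.05, 3 were higher, or 15.8%, against 3.80% of all genes. Srd5a1, the steroid 5-alpha-reductase that acts on the same steroids ahead of the Akr1c enzymes, had 20.1, 15.7 and 16.8 CPM in vehicle and 22.3, 23.4 and 22.00 CPM in nanoplastic. All nanoplastic values were above all vehicle values and the log2 fold change was 0.36 (SE 0.10, edgeR adjusted p = 0.501). Aldh1a1, a retinal dehydrogenase, went the same way at 5.38, 4.55 and 5.01 against 8.53, 6.26 and 6.81 CPM, a log2 fold change of 0.53 (SE 0.15, edgeR adjusted p = 0.501). In the glucuronate and ascorbate list, read beside Akr1a1, 7 of 8 genes were tested and 0 had an unadjusted p under 0.05 (7.42% of all genes). The largest step was in Cryl1 at -0.15 (SE 0.08).

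Regulators of conjugation genes and their known targets gave 25 tested genes of 26, with 0 past the adjusted threshold and a median of -0.02. At an unadjusted p under 0.05 there were 6, or 24.0%, against 7.42% of all genes. Of these 5 were lower (3.61% of all genes) and 1 higher (3.80%). Ahr, Nfe2l2, Nr1i2, Nr1i3 and Hnf4a overlapped between groups. Log2 fold changes were -0.00044 (SE 0.12) for Ahr, 0.03 (SE 0.07) for Nfe2l2, which encodes Nrf2, and 0.23 (SE 0.19) for Nr1i2, the pregnane X receptor. It was -0.15 (SE 0.36) for Nr1i3, the constitutive androstane receptor. Hnf4a, a nuclear receptor of liver and proximal tubule, had 603, 664 and 665 CPM in vehicle and 584, 621 and 709 CPM in nanoplastic (-0.01, SE 0.08). Nqo1, a target of Nrf2, gave 0.14 (SE 0.10, edgeR adjusted p = 0.776). Gclc, another target and a subunit of the enzyme that starts glutathione synthesis, had 271, 408 and 289.8 CPM in vehicle and 229, 211 and 224 CPM in nanoplastic. All nanoplastic values were lower, with a log2 fold change of -0.54 (SE 0.13, edgeR adjusted p = 0.394) and a DESeq2 adjusted p of 0.00226. Nr1h4, the bile acid receptor FXR, had 152, 159.5 and 134 CPM in vehicle and 77.9, 111 and 126 CPM in nanoplastic, also apart, with a log2 fold change of -0.51 (SE 0.14, edgeR adjusted p = 0.501) and a DESeq2 adjusted p of 0.0258. Nanoplastic replicate 1 was the lowest of the 6 for Nr1h4.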

How the data were processed

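Kidney RNA of 6 mice (3 vehicle, 3 nanoplastic) was sequenced, per the labels' protocols, on a NovaSeq X Plus. The submitters' processing notes name the build GRCm39, RSEM 1.3.3, STAR 2.7.9a, Trim Galore 0.6.6 and FastQC. Annotation release and strandedness: not given in the sources used here. Per the file headers, the authors deposited expected counts per gene from RSEM, which divides reads between similar genes and does not normalize. The deposited TPM, scaled for length and library, served for levels and 1 alternative. FPKM was deposited by the authors and not used.

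Symbols came from GENCODE vM21 (GRCm38) by gene ID, which named 51884 of 57180 IDs, so no coordinates of the files' build are given. Coding sequences came from the same release and promoters from RefSeq (GRCm38.p6). After rounding of the expected counts, filterByExpr removed low genes, TMM set the scale, and the quasi-likelihood test of edgeR 4.0.16 (R 4.3.3; glmQLFit and glmQLFTest on the 2 groups) was run, with Benjamini-Hochberg adjustment over 18092 genes and a threshold of 0.05. SE was taken as the log2 fold change over the square root of F, and CPM are TMM-scaled. Log2 CPM for the comparison of replicate numbers used a prior count of 2, and the fitted log2 fold changes kept edgeR's default. The common biological coefficient of variation was 0.105. Intervals are 95% and include variation between mice, and the floor for a count of 0 is 3 counts.

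Members and gene lists were chosen with earlier results of these data known. Named with values were the 3 most abundant tested members of each subfamily and all tested members with an unadjusted p under 0.05 or groups that do not overlap. Of each context list the 2 genes with the lowest p were named, with a set of donor enzymes and receptors. Some genes and results that rule covers are not reported here. Other members named (Akr1c12, Akr1c13, Ugt1a1, Ugt1a10, Ugt2b36, Ugt2a3, Ugt2b1, Sult1b1 and those at 0 or few counts) were picked after their values were seen. Alternatives were DESeq2 1.42.0, limma 3.58.1 (voom, and log2(TPM + 1) with a pseudocount of 1), other scalings and filters, a replicate block, libraries left out and sums of members that share sequence. Scripts were tested on simulated data.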

Additional observations from a re-analysis of the deposited data

How the results depend on the processing

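Over 19 alternative settings, 842 of 900 values of 48 named genes kept their direction and their side of the threshold, and 55 in 19 genes reversed sign, none of which was past the threshold in either setting. No member passed the adjusted threshold in any setting except Akr1c18 under DESeq2, which also called Gclc and Nr1h4. All genes called numbered 0 in the reported fit, 55 under DESeq2, 0 to 9 with 1 library left out (9 without nanoplastic replicate 1), and 30 without both libraries that carry fat markers. Members called numbered 1 under DESeq2. Members at an unadjusted p under 0.05 numbered 5 (7.42% of all genes), against 3 with limma on log2(TPM + 1) (5.36%), 8 without both libraries that carry fat markers (10.0%), and 2 to 5 with 1 library left out. With members that share sequence summed they were 4 of 27 (7.42%), the Ugt2b5, Ugt2b37 and Ugt2b38 sum among them. Akr1c18 was among them in every setting. Without both libraries that carry fat markers, Ugt1a6b, Ugt1a7c and Ugt2b34 joined those of the reported fit. The cause of these shifts was not tested, apart from fewer libraries or fewer rows where the setting itself removes them.

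The median of all genes moved by 0.044 with library size alone and by 0.037 with limma on log2(TPM + 1), so family medians and genes close to 0 move with it there. The Ugt median of -0.05 became -0.0079 with library size alone, 0.0030 with limma on log2(TPM + 1), -0.11 without both libraries that carry fat markers, -0.15 over the 7 Ugt genes and sums with members that share sequence summed, and -0.10 to -0.00037 with 1 library left out. The Akr median of -0.03 became 0.049 with limma on log2(TPM + 1). Against the median of all genes the Ugt median was -0.059 as reported, -0.059 with library size alone and -0.040 with limma on log2(TPM + 1), and the Akr median -0.035, -0.036 and 0.0054. Log2 fold changes that reversed with library size alone were Akr1b7 0.010, Akr1c21 0.020, Sult1d1 0.024, Ugt1a6a 0.020, Ahr 0.046 and Hnf4a 0.027. With limma on log2(TPM + 1) they were Akr1a1 0.0024, Akr1b10 0.055, Akr1b7 0.023, Akr1c21 0.042, Sult1d1 0.094, Ugt1a6a 0.047, Ugt2b37 0.025, Ugt3a2 0.0088, Ugp2 0.021, Ahr 0.081 and Hnf4a 0.049. Without both libraries that carry fat markers they were Akr1b8 -0.21, Akr1c21 0.00058, Ugp2 0.00092, Nr1i3 0.38 and Hnf4a 0.074. Ahr also reversed with upper-quartile factors (0.010), with a floor of 1 CPM in 3 libraries (0.0011) and with protein-coding genes only (0.0070). With 1 library left out in turn, these ranges crossed 0: Ahr -0.095 to 0.078, Akr1a1 -0.091 to 0.0061, Akr1b7 -0.12 to 0.025, Akr1b8 -0.20 to 0.85, Akr1c21 -0.058 to 0.030, Akr1e1 -0.040 to 0.082, Hnf4a -0.096 to 0.049, Nfe2l2 -0.0097 to 0.081, Nr1i3 -0.40 to 0.23, Papss2 -7.5e-05 to 0.20, Sult1a1 -0.046 to 0.15, Sult1d1 -0.061 to 0.043, Sult2a8 -0.14 to 1.34, Ugt1a6a -0.090 to 0.057, Ugt2b37 -0.13 to 0.040, Xylb -0.00096 to 0.087.

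Replicate numbers gave no clear pairing of the mice: deviations of same-numbered libraries from their group means correlated at 0.04, -0.02 and 0.10. Vehicle replicates 1 and 3 correlated best with their own number, and 0.10 was the highest of all pairs. Vehicle replicate 2 correlated best with nanoplastic replicate 1 (0.08). Values this small over 3 libraries per group cannot decide whether the mice were paired. With the replicate block, 4 members had an unadjusted p under 0.05 (Akr1c14, Akr1c18, Akr1c6, Ugt2b38), against 7.78% of all genes, and 0 were called. Of the 59 members, 22 were below the filter on low counts and could not be tested. Of those, 11 had no count in any library. The part of sequencing depth in this was not tested. The summing of members that share sequence, and edgeR's legacy quasi-likelihood, were chosen after seeing the data.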
